A study of Mus musculus with 12 samples.

Results

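Irf8, Bcl6, Rbpj, Id1, Id2 and Id3 are transcriptional repressors that hold back osteoclast formation, and they were followed through RNA-seq libraries of bone marrow-derived macrophages (BMMs), the precursors of osteoclasts. They were found by their gene symbols and are 6 of the 24421 genes in the files, and all 6 were listed in all 12 libraries. The study asked what miR-182, a microRNA, does in osteoclast formation, and the question here is how these repressors stood in each condition. Levels are given as CPM, counts per 1000000 reads on genes, with the mean and SD of the 2 replicates of a condition.

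The loss of function experiment compared WT cells (Mir182+/+LysMcre(+)) with Mir182ΔM/ΔM cells (Mir182flox/floxLysMcre(+)), each at baseline (basal) and after RANKL for 5 days. RANKL is the cytokine that drives osteoclast differentiation. The gain of function experiment compared Control cells (LysMcre(+)) with Mir182mTg cells (LSL-Mir182LysMcre(+)), both without RANKL. In the Mir182mTg mice the Mir182 transgene sits behind a stop that Cre removes. Per the descriptions, all mice were C57BL/6 and carried LysMcre, a Cre driven by the lysozyme M (Lyz2) promoter and therefore active in myeloid cells. Strain and LysMcre were taken from these descriptions and were not tested here. All cells were first grown with M-CSF for 3 days. Nothing in the sources used here says how many mice stood behind a library, so the p-values measure the spread between the 2 libraries of a condition, which may be partly technical.

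Reads on genes ranged from 24951280 to 33050619 per library, and 3 reads amount to 0.0908 to 0.120 CPM. Among the loss of function libraries, those of WT RANKL were set apart by genes that are not osteoclast genes. Lyz2, the gene that carries the Cre, had 22.5 to 44.0 CPM in the other 6 loss of function libraries, 4117 and 4288 CPM in WT RANKL, and 5783 to 7062 CPM in the gain of function libraries. Ifi202b, an interferon-inducible gene, had 82.1 to 152 CPM in those 6 libraries, about 1.12 and 0.972 CPM in WT RANKL, and at most 0.0908 CPM in the gain of function libraries. The comparisons that use WT RANKL (RANKL in WT cells, the genotypes after RANKL, and the interaction) rest on these 2 libraries and cannot be made without them. In these comparisons the effect of RANKL or genotype and whatever else sets the WT RANKL libraries apart cannot be told apart. RANKL in Mir182ΔM/ΔM cells, the genotypes at baseline and Mir182mTg against Control do not use them.

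Osteoclast formation is driven by NFATc1 (gene Nfatc1), and the cell must also lift a set of repressors. Irf8, an interferon regulatory factor of the macrophage lineage, holds back Nfatc1 and is lost as osteoclasts form. Bcl6 is a zinc finger repressor that occupies osteoclast genes and is itself repressed by Blimp1 (gene Prdm1). Rbpj is the DNA-binding factor of the Notch pathway, which represses its targets when no Notch fragment is bound. The Id proteins have a helix-loop-helix but no DNA-binding stretch, so they pair with E proteins such as Tcf3 and keep them off DNA. Id1, Id2 and Id3 are classical targets of BMP and Smad signaling.

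Whether a member carries letters that miR-182 could pair with was read from the annotated 3′ UTRs. Mature miR-182-5p lies on the minus strand at chr6:30165962-30165986 (GRCm38.p6, RefSeq), and its seed, bases 2 to 8, is in capitals. The 3′ UTR stretches below it are those of Rbpj (chr5:53655036-53655041, plus strand) and Id3 (chr4:136145197-136145202, plus strand) in mm10, with the letters that pair with bases 2 to 7 in capitals.
mmu-miR-182-5p: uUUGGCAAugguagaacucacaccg
Rbpj 3′ UTR: agccctgtgTGCCAAtatgccaga
Id3 3′ UTR: tgcgcactcTGCCAAggcagcata

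None of the 6 members held TTGCCAA, the match to bases 2 to 8, which 11.5% of 19503 genes with a 3′ UTR hold. None held TGCCAAA, the match to bases 2 to 7 followed by A, which 12.9% of these genes hold. The shorter TGCCAA was in Rbpj and Id3 and in 31.7% of these genes. Only the strand of the transcript was searched. Every TTGCCAA and every TGCCAAA also holds TGCCAA. A match is a description of the letters and not a site of action.

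Of the 6 members, 5 had a promoter among the RefSeq promoter windows, which span each annotated start (GRCm38.p6), and Id1 was the exception. The letters TTCNNNGAA, the GAS motif that STAT factors bind, read the same on both strands and were in the promoters of Irf8 and Bcl6 and in 8.3% of 32851 promoters. The stretches are shown because these 2 genes ended on opposite sides in the genotype comparison after RANKL, with the motif in capitals. They lie at chr8:120736187-120736195 and chr8:120736205-120736213 (plus strand, Irf8) and at chr16:23988962-23988970 (minus strand, Bcl6), 171, 153 and 118 bases before the start.
Irf8 GAS, upstream: aaaagtgatTTCTCGGAAagagagcgc
Irf8 GAS, downstream: agagagcgcTTCAGAGAAggcggattt
Bcl6 GAS: gcaaattagTTCTCAGAAttccagagg

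Another Bcl6 start held 3 more GAS matches. GGCGCC, the BMP response element, was found in the Id2 promoter and in 11.9% of promoters. GTGGGAA, a site of Rbpj, was found in the Irf8 promoter and in 6.38% of promoters on either strand. The core of the interferon-stimulated response element and TGACGTCA, the cAMP response element, were in none of the members' promoters and in 3.44% and 1.79% of all. Both strands were searched, and no match in a member's promoter overlapped another.

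The levels formed 3 patterns, as the plot of levels by library shows. Irf8 and Rbpj were high at baseline and low after RANKL in both genotypes. Bcl6 and Id2 were lower in WT RANKL than in Mir182ΔM/ΔM RANKL and highest in the gain of function cells. Id1 and Id3 were near 1 CPM or below in the loss of function cells, other than Mir182ΔM/ΔM RANKL, and at 44.1 to 69.5 CPM in the gain of function cells.

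**Figure D1:**
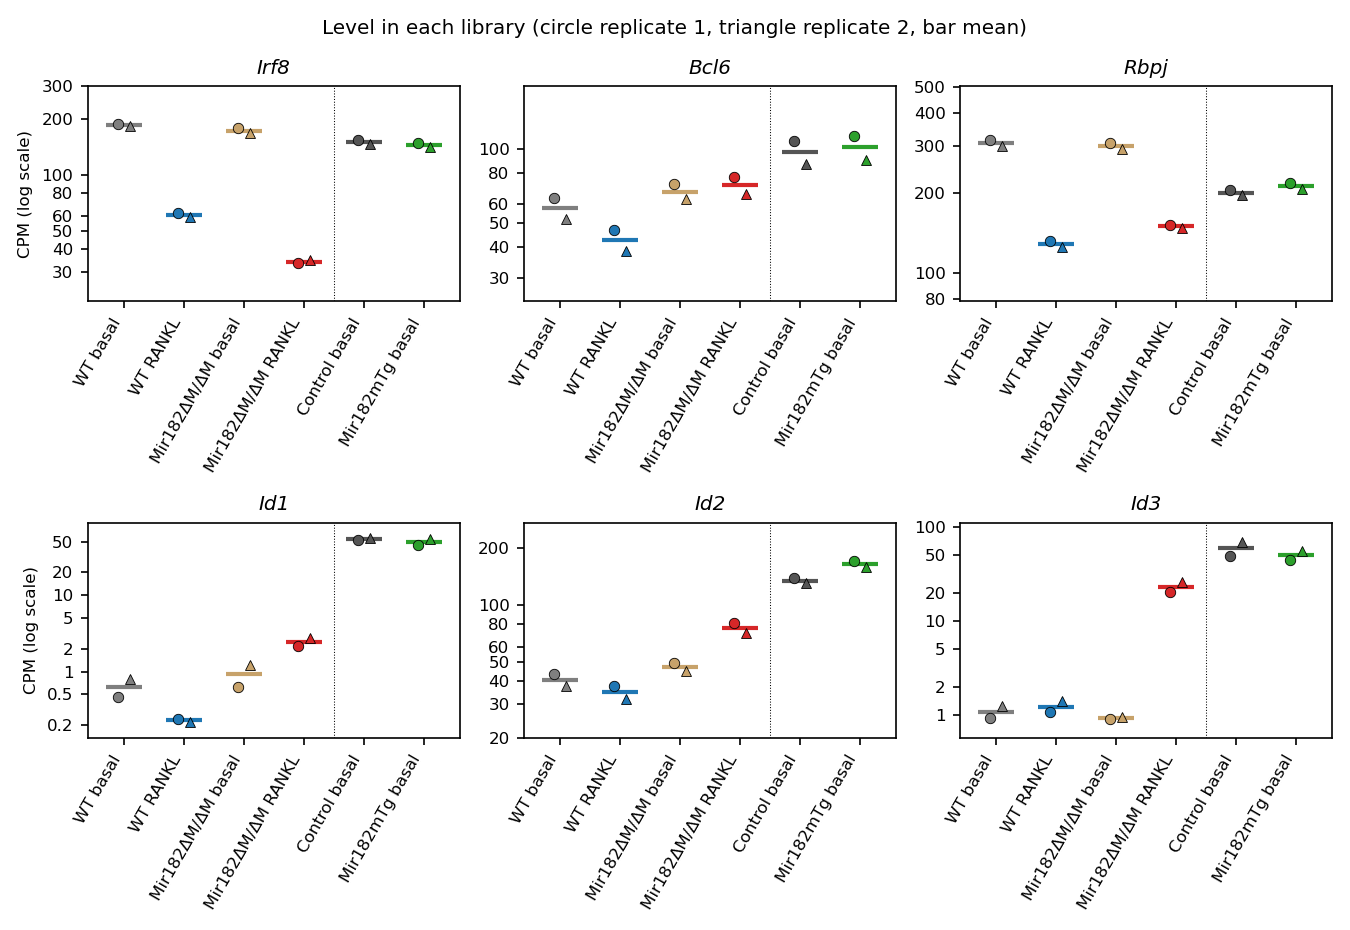
CPM (log scale) of each member in the 12 libraries, with replicate 1 as circles, replicate 2 as triangles, the mean as a bar, and the gain of function libraries to the right of the dotted line. Irf8 falls from 184.1 to 187.6 CPM in WT basal to 33.5 to 34.9 CPM in Mir182ΔM/ΔM RANKL, while Id3 is at 20.3 and 26.2 CPM there against 0.925 to 1.40 CPM in the other loss of function libraries.

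Irf8 (chr8:120736358-120756694, plus strand, mm10, GENCODE vM21) had 188 and 184 CPM in WT basal and 178 and 168 CPM in Mir182ΔM/ΔM basal. After RANKL it had 62.4 and 59.7 CPM in WT and 33.5 and 34.9 CPM in Mir182ΔM/ΔM cells. Control had 153 and 147 CPM, and Mir182mTg had 148 and 142 CPM. The order of its means ran from WT basal (186 ± 2.49) through Mir182ΔM/ΔM basal, Control, Mir182mTg and WT RANKL to Mir182ΔM/ΔM RANKL (34.2 ± 0.962), and of the neighbours in this order, Control and Mir182mTg overlapped in their libraries.

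Bcl6 (chr16:23965052-23988852, minus strand) had 63.3 and 51.9 CPM in WT basal and 47.1 and 38.6 CPM in WT RANKL. It had 71.9 and 62.6 CPM in Mir182ΔM/ΔM basal and 76.7 and 65.7 CPM in Mir182ΔM/ΔM RANKL. The gain of function libraries were the highest, with 108 and 87.3 CPM in Control and 112 and 90.4 CPM in Mir182mTg. In the order of its means Mir182mTg and Control, Mir182ΔM/ΔM RANKL and basal, and Mir182ΔM/ΔM basal and WT basal overlapped in their libraries, and WT RANKL was the lowest with no overlap. In every condition replicate 2 was below replicate 1, at 0.804 to 0.870 times its level, so the SD of Bcl6 within a condition mostly followed the replicate number. Its exons overlap those of Gm37419 on the other strand, and reads of the overlap cannot be told apart without strand.

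Rbpj (chr5:53466152-53657362, plus strand) had 314 and 300.0 CPM in WT basal and 308 and 292 CPM in Mir182ΔM/ΔM basal. After RANKL it had 132 and 126 CPM in WT and 152 and 148 CPM in Mir182ΔM/ΔM cells. Control had 204.5 and 197 CPM and Mir182mTg 219 and 207 CPM, between the basal and the RANKL libraries of the loss of function experiment. Only WT basal and Mir182ΔM/ΔM basal overlapped among the neighbours in its order.

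Id2 (chr12:25093799-25097140, minus strand) had 43.1 and 37.5 CPM in WT basal, 37.4 and 32.0 CPM in WT RANKL, and 49.7 and 44.8 CPM in Mir182ΔM/ΔM basal. Mir182ΔM/ΔM RANKL reached 80.9 and 71.7 CPM. Control had 139 and 130.5 CPM and Mir182mTg 171 and 159 CPM. No neighbouring conditions in the order of Id2 overlapped in their libraries, and the step from WT RANKL to WT basal and that from WT basal to Mir182ΔM/ΔM basal were 1.16-fold and 1.17-fold.

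Id1 (chr2:152736251-152737410, plus strand) was counted with few reads in the loss of function libraries. It had 15 and 20 reads (0.459 and 0.802 CPM) in WT basal, 6 and 6 reads (0.239 and 0.216 CPM) in WT RANKL, and 17 and 33 reads (0.629 and 1.23 CPM) in Mir182ΔM/ΔM basal. Mir182ΔM/ΔM RANKL had 66 and 70 reads, 2.17 and 2.75 CPM. In Control and Mir182mTg it had 45.6 to 56.7 CPM, or at least 1500 reads in every library. Control and Mir182mTg overlapped, as did Mir182ΔM/ΔM basal and WT basal.

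Id3 (chr4:136143497-136145755, plus strand) had 25 to 39 reads in the 6 loss of function libraries other than Mir182ΔM/ΔM RANKL, 0.948 and 1.24 CPM in WT basal, 1.08 and 1.40 CPM in WT RANKL, and 0.925 and 0.970 CPM in Mir182ΔM/ΔM basal. Mir182ΔM/ΔM RANKL had 618 and 665 reads, 20.3 and 26.2 CPM. Control had 49.6 and 69.5 CPM and Mir182mTg 44.1 and 55.7 CPM. The 2 Mir182ΔM/ΔM RANKL libraries were thus above every other loss of function library and below every gain of function library. Control and Mir182mTg overlapped, and so did WT RANKL, WT basal and Mir182ΔM/ΔM basal from each to the next.

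Levels of different genes were compared per gene length, as RPKM (CPM per kilobase). In WT basal, Irf8 (54.1 RPKM) and Rbpj (51.6) stood first, followed by Id2 (31.7) and Bcl6 (17.5). In Mir182ΔM/ΔM RANKL, Id2 led with 60.01 RPKM, ahead of Rbpj (25.2), Id3 (24.4) and Bcl6 (21.7), while Irf8 had 9.96 RPKM. The ratio of Irf8 to the sum of Id1, Id2 and Id3 in RPKM was 1.54 and 1.69 in WT basal, 0.591 and 0.648 in WT RANKL, 1.27 and 1.30 in Mir182ΔM/ΔM basal and 0.112 and 0.117 in Mir182ΔM/ΔM RANKL. It was 0.205 and 0.181 in Control and 0.188 and 0.17 in Mir182mTg. The most Irf8 per Id RNA was thus in WT basal and the least in Mir182ΔM/ΔM RANKL. The unstimulated gain of function cells were below WT RANKL.

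The mix of Id RNAs differed as well. Id2 made up 93.2% to 96.0% of the summed RPKM in WT basal, WT RANKL and Mir182ΔM/ΔM basal. In Mir182ΔM/ΔM RANKL its share was 72.9% and 65.0%, with Id3 at 24.4% and 31.6%. In Control, Id2 was 50.3% and 43.4%, Id1 25.9% and 25.7%, and Id3 23.9% and 30.9%. The fourth Id gene, Id4, had at most 1 read in any library.

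**Figure D2:**
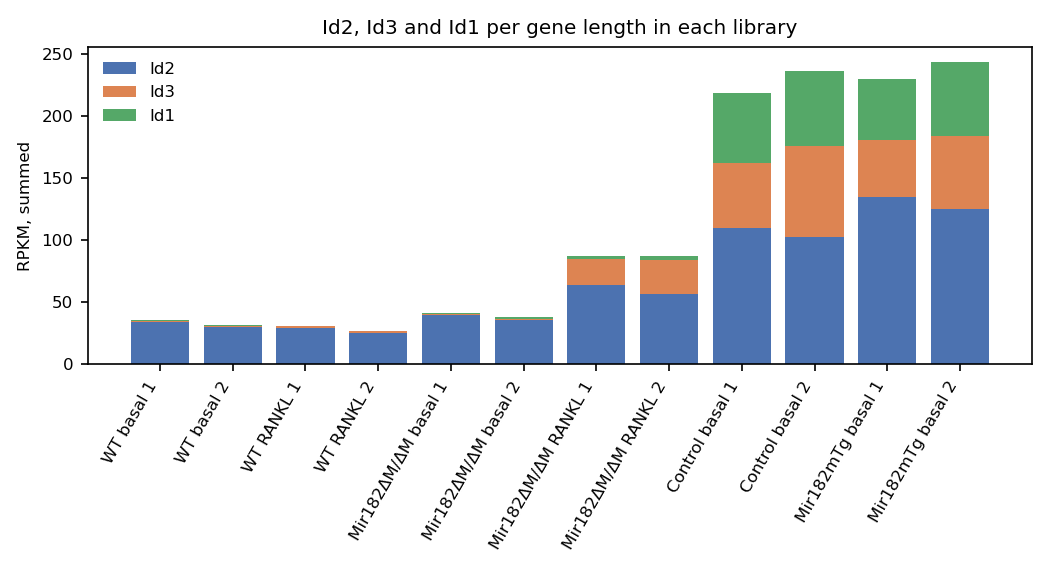
Stacked bars of Id2, Id3 and Id1 in RPKM for each library, summed from 0. The sum is 26.8 to 40.7 RPKM in WT basal, WT RANKL and Mir182ΔM/ΔM basal, about 87 RPKM in Mir182ΔM/ΔM RANKL and 218 to 243 RPKM in the gain of function libraries, where Id1 and Id3 take a visible share.

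The WT RANKL libraries had less Irf8, Rbpj and Bcl6 than the WT basal libraries. Irf8 was at 32.9% of its basal level (log2 fold change on CPM + 1 of -1.59 ± 0.065 (SE), limma adjusted p = 1.50e-06) and Rbpj at 42.0% (-1.25 ± 0.063, adjusted p = 3.67e-06). Bcl6 was at 74.4% (-0.42 ± 0.14, limma adjusted p = 0.0383, and -0.64 with edgeR on the recovered reads). That call was lost without WT basal replicate 1 (adjusted p = 0.192) and without WT RANKL replicate 2 (adjusted p = 0.194), and in a fit of these 4 samples alone (adjusted p = 0.0588). These 3 members are called lower, where 22.0% of the 11691 genes tested were lower and 40.6% higher.

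The Id genes had no call in WT cells. On the log2 scale Id1 differed by -0.40 (limma adjusted p = 0.0927), Id2 by -0.21 (adjusted p = 0.148) and Id3 by 0.10 (adjusted p = 0.597, and -0.02 with TMM factors). On counts this low the fold change of Id1 depends on the pseudocount, and it was called lower with a pseudocount of 0.1 (-1.12, limma adjusted p = 0.0299), with quantile normalization (-0.71, adjusted p = 0.00761) and with edgeR on the recovered reads (-1.62, adjusted p = 0.0366). With the replicate number as a block, Id1 and Id2 were called lower (limma adjusted p = 0.0128 and 3.64e-04), and Id2 also when CPM were divided by TMM factors (-0.42, adjusted p = 0.0156), with quantile normalization (adjusted p = 0.016) and with edgeR on the recovered reads (adjusted p = 0.0154). The median of all genes was 0.187 in this comparison and -0.00665 with TMM factors, so the scalings differ in where they place the middle of all genes. With TMM factors 3352 genes were higher and 3569 lower, against 4741 and 2571 without.

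In Mir182ΔM/ΔM cells, Irf8 and Rbpj were lower and the 3 Id genes higher after RANKL than at baseline. Irf8 was at 19.8% of its basal level (-2.30 ± 0.065, limma adjusted p = 4.28e-07) and Rbpj fell 2.0-fold (-0.99 ± 0.063, adjusted p = 1.39e-05). Id3 rose 24.5-fold (3.63 ± 0.15, limma adjusted p = 2.03e-06), Id2 1.62-fold (0.68 ± 0.12, adjusted p = 0.002) and Id1 2.65-fold (0.85 ± 0.18, adjusted p = 0.00573, and 1.35 with edgeR on the recovered reads). Bcl6 differed by 0.08 on the log2 scale (limma adjusted p = 0.658). The genes called in this comparison were 30.4% higher and 26.4% lower. Id1 reached 1 CPM in 3 of 8 libraries, all of Mir182ΔM/ΔM cells, and Id3 in 5 of 8, so both entered the test partly through groups in which they were high, and the number of members called says nothing more. Fitted with no WT RANKL library, an alternative chosen after the data were seen, these 5 members were called in the same directions (limma adjusted p from 3.40e-06 to 0.00995).

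At baseline, Mir182ΔM/ΔM and WT cells had no member called apart. Irf8 was at 93.0% of WT (log2 fold change -0.11, limma adjusted p = 0.522), Bcl6 at 117% (0.22, adjusted p = 0.555) and Id2 at 117% (0.22, adjusted p = 0.424). Rbpj, Id1 and Id3 had adjusted p-values from 0.647 to 0.892 in limma. Of all genes, 2.71% were called higher and 1.1% lower, and none of the members had an unadjusted p under 0.05. With the replicate block, Bcl6 and Id2 were called higher (limma adjusted p = 6.52e-04 and 0.00103), on the same 1.17-fold differences.

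After RANKL, Mir182ΔM/ΔM cells had less Irf8 and more of the other members than WT cells. Irf8 was at 56.0% of WT (-0.82 ± 0.065, limma adjusted p = 7.74e-05). Id3 was 18.7-fold higher (3.43 ± 0.15, limma adjusted p = 6.29e-06), Id1 10.8-fold (1.49 ± 0.18, adjusted p = 6.03e-04), Id2 2.20-fold (1.12 ± 0.12, adjusted p = 2.77e-04) and Bcl6 1.66-fold (0.72 ± 0.14, adjusted p = 0.00606). Rbpj was 1.16-fold higher (0.22 ± 0.063, limma adjusted p = 0.0271). Id1 passed the filter on low values only through Mir182ΔM/ΔM libraries, 2 of these 4 among them, so it entered the test through the group in which it is high, and its difference is a description, and its log2 difference was 3.55 with edgeR on the recovered reads. The log2 difference of Rbpj was 0.37 with TMM factors. The Rbpj call was lost when any of the 4 RANKL libraries was left out, with adjusted p of 0.058 without WT RANKL replicate 1, 0.139 without WT RANKL replicate 2, 0.117 without Mir182ΔM/ΔM RANKL replicate 1 and 0.0683 without replicate 2, and in a fit of these 4 samples alone (0.0743). Of all genes, 14.3% were called higher and 30.9% lower. The median of all genes was -0.145 (-0.0084 with TMM factors, which gave 2403 higher and 2392 lower against 1668 and 3607), and the 6 members kept their calls and directions with TMM factors, Irf8 at -0.67.

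**Figure D3:**
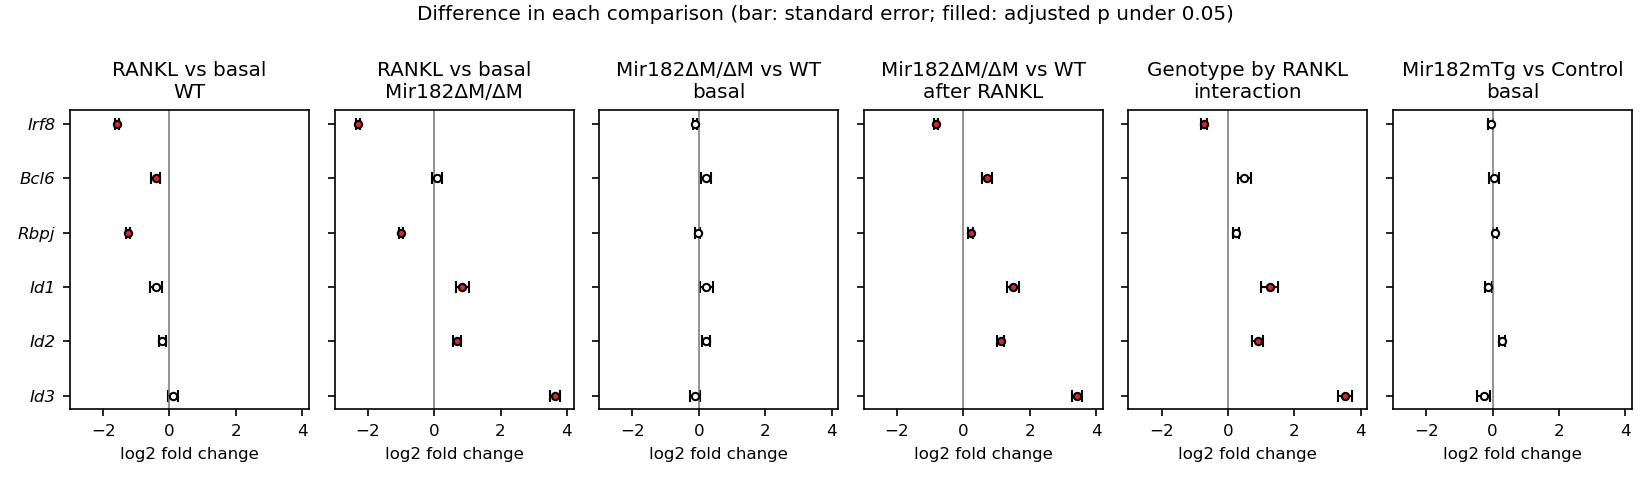
Log2 fold change of each member in the 6 comparisons, with the standard error as a bar and filled points for an adjusted p under 0.05 (limma on log2(CPM + 1), edgeR for Mir182mTg against Control). Irf8 lies left of 0 in both RANKL panels and in the genotype panel after RANKL, the Id genes lie right of 0 in the panels of RANKL in Mir182ΔM/ΔM cells and of the genotypes after RANKL, and no point is filled in the panels at baseline.

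Whether the response to RANKL differed between genotypes was tested as the interaction. It was negative for Irf8 (-0.71 ± 0.091, limma adjusted p = 0.0016) and positive for Id3 (3.53 ± 0.21, adjusted p = 8.06e-05), Id1 (1.26 ± 0.26, adjusted p = 0.012) and Id2 (0.89 ± 0.16, adjusted p = 0.00768). The limit on Id1 from the filter holds here as well, and its interaction was 2.97 with edgeR on the recovered reads. For Bcl6 it was 0.50 (limma adjusted p = 0.126, and 1.05e-06 with the replicate block). For Rbpj it was 0.25 (limma adjusted p = 0.0828, 4.92e-05 with the block, and 0.415 with TMM factors, adjusted p = 0.0126). Of all genes, 7.44% had a positive and 17.1% a negative interaction, with a median of -0.151 (7.61e-04 with TMM factors, 1222 positive and 1287 negative against 870 and 2005).

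Because the WT RANKL libraries resembled the gain of function libraries in Lyz2 and Ifi202b, their levels are set beside Control. No test was made, since the loss and gain of function experiments each had their own controls. Irf8 had 61.1 CPM in WT RANKL and 150.1 CPM in Control on average, Rbpj 129 and 200.5 CPM, and Bcl6 42.9 and 97.6 CPM. Id2 had 34.6 and 135 CPM, Id1 0.228 and 54.7 CPM, and Id3 1.24 and 59.5 CPM. For Irf8, Rbpj, Bcl6, Id1 and Id2 both WT RANKL libraries were below those of WT basal and of Control, and for Id3 they overlapped with WT basal and were below Control. For every member the distance from WT RANKL depended on which of these stood in as the unstimulated cells, most of all for Id1 and Id3.

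Between the 2 sets of unstimulated cells, Control and WT basal, the Id genes were the furthest apart of the members. Id1 was 86.8-fold, Id3 54.4-fold and Id2 3.35-fold higher in Control, Bcl6 1.69-fold higher, and Irf8 and Rbpj were at 80.7% and 65.3% of WT basal. Of 9970 genes with at least 5 CPM in a library, 29 (0.291%) were at least 10-fold and 5 (0.0502%) at least 50-fold higher in each Control library than in each WT basal library. Id1 was among the 5 and Id3 among the 29. Both reached 5 CPM only in Control, the group in which they are high, so this is a description with no test. WT basal and Control were both described as carrying LysMcre and no change of Mir182.

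Mir182mTg against Control had no member called. In the check of the transgene, the Mir182 gene had 79 and 123 reads (2.39 and 4.40 CPM) in Mir182mTg and at most 1 read in every other library, including WT, so these libraries cannot check the deletion. Id2 was 1.23-fold higher in Mir182mTg (log2 fold change 0.28 ± 0.079, edgeR adjusted p = 0.442), and Id3 was at 83.8% of Control (-0.27 ± 0.20, edgeR adjusted p = 1.0). Of 12081 genes, 0.0993% were higher and 0.157% lower with edgeR, and 863 had an unadjusted p under 0.05, of which Id2 was the member. DESeq2 called 129 genes and none of the members. With the replicate block in edgeR, 1822 genes were called, among them Id2 higher (adjusted p = 1.65e-05) and Id3 lower (adjusted p = 0.00158).

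The osteoclast genes that these factors hold back were mostly higher after RANKL in both genotypes. Of 11 such genes, 11 were higher in WT (median 5.09) and 10 in Mir182ΔM/ΔM cells (median 4.10). Some of the 11 were under 1 CPM in every basal loss of function library. They passed the filter only through RANKL libraries, in which they are high, so their rise is a description. In Mir182ΔM/ΔM cells Nfatc1 was not called (0.18, limma adjusted p = 0.337), but it was called higher with the replicate block (limma adjusted p = 1.57e-04). The interaction was negative for 9 and positive for none (8 and 1 with TMM factors). Of all genes, 40.6% were higher after RANKL in WT and 30.4% in Mir182ΔM/ΔM cells, and 17.1% had a negative interaction. After RANKL 9 of the 11 were lower and 1 higher in Mir182ΔM/ΔM than in WT, with a median log2 fold change of -2.13. All genes had a median of -0.145, with 30.9% lower and 14.3% higher. Nfatc1 had 585 ± 87.7 CPM in WT RANKL and 112 ± 15.5 CPM in Mir182ΔM/ΔM RANKL (-2.38, limma adjusted p = 2.39e-05), beside 98.0 CPM in WT basal. Prdm1, whose product represses Bcl6 and Irf8, had 172 ± 9.26 and 27.5 ± 2.34 CPM (-2.60, limma adjusted p = 7.46e-06). Itgb3, the integrin chain β3, was the gene higher in Mir182ΔM/ΔM cells (0.49, adjusted p = 0.00247, limma). Nfatc1 and Irf8 were thus both lower in Mir182ΔM/ΔM RANKL than in WT RANKL, and a link between them was not tested. In bulk samples, fewer osteoclasts and less RNA per cell cannot be told apart.

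Of 14 transcription factors that induce osteoclasts, 9 were lower and none higher in Mir182ΔM/ΔM than in WT after RANKL in limma (6 lower and 1 higher with TMM factors), beside 30.9% lower and 14.3% higher of all genes. Their median was -0.33, beside -0.145 for all genes. Jdp2 (-2.70) and Fosl2 (-2.45), both of the AP-1 family, were with Prdm1 and Nfatc1 the 4 largest differences. The 8 tested of 10 other repressors had 2 lower, Nr4a1 (-0.53) and Klf2 (-0.41), and none higher, but with TMM factors 1 lower and 1 higher, and with the replicate block 4 lower and 3 higher. Hes1, a Notch target and repressor, was too low for a test, with at most 0.155 CPM on average in any condition.

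Around Rbpj, the genes of the Notch list that were called were lower in Mir182ΔM/ΔM than in WT cells after RANKL. Of 24 genes, 16 were tested, 9 were lower and none higher (8 and 0 with TMM factors, 12 and 1 with the replicate block), with a median of -0.43. Of all 11691 genes tested, 30.9% were lower and 14.3% higher, with a median of -0.145, and 8555 were called with the block. Dtx4, a Deltex ligase, had 423.5 ± 15.2 CPM in WT RANKL and 84.4 ± 0.628 CPM in Mir182ΔM/ΔM RANKL (-2.31, limma adjusted p = 2.29e-06). Jag1, a Notch ligand, had 22.2 and 6.10 CPM (-1.71), Mfng, a glycosyltransferase of Notch, 22.8 and 7.97 CPM (-1.40), and the receptor Notch1 28.8 and 11.9 CPM (-1.21). In the same libraries Rbpj itself was 1.16-fold higher.

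Around the Id genes, the BMP, TGF-β and Smad list was split. Of 21 genes, 16 were tested, and 6 were higher and 5 lower in Mir182ΔM/ΔM than in WT after RANKL (6 and 4 with TMM factors), with a median of -0.11. Beside 14.3% higher and 30.9% lower of all genes, the lower count is near the background. Smad6, an inhibitory Smad and itself a BMP target, had 0.579 ± 0.199 CPM in WT RANKL and 4.44 ± 0.497 CPM in Mir182ΔM/ΔM RANKL (1.79, limma adjusted p = 6.49e-05). Smad6 passed the filter on low values only through the Mir182ΔM/ΔM RANKL libraries, in which it is high. Its difference is therefore a description. Bmp2, a ligand, had 8.85 ± 0.665 and 27.0 ± 2.46 CPM (1.5, limma adjusted p = 9.49e-05). Tgfbr1, a receptor of TGF-β, was lower (-1.18, limma adjusted p = 1.68e-05). In the gain of function cells, where Id1 to Id3 were highest, Smad6 had 14.99 CPM in Control and 12.1 CPM in Mir182mTg. Bmp2 had 0.384 and 0.436 CPM there.

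Of the 4 tested partners of Id proteins, 2 were lower in Mir182ΔM/ΔM than in WT cells after RANKL, beside 30.9% lower of all genes. The list also held Id4, itself an Id gene, which was too low for a test. Mitf, a partner with a role in osteoclast genes, had 182 ± 15.6 and 100.9 ± 8.59 CPM (-0.84, limma adjusted p = 7.84e-04), and Tcf3, the E protein E2A, 86.3 ± 2.18 and 62.5 ± 6.27 CPM (-0.46, adjusted p = 0.00484). Tcf4 and Tcf12 were not called.

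Around Irf8, 19 of 20 IRF, STAT and myeloid genes were tested, and 9 were higher and 4 lower in Mir182ΔM/ΔM than in WT after RANKL (9 and 2 with TMM factors, 9 and 7 with the replicate block), with a median of 0.04. Of all genes, 14.3% were higher and 30.9% lower, with a median of -0.145. Irf7 had 48.7 ± 1.43 and 1326 ± 41.2 CPM (4.74, limma adjusted p = 7.99e-08). Stat2 (2.32), which acts in interferon signaling, was higher as well, and Batf (-1.13) was lower. Irf8 was thus lower in the libraries in which Irf7, of the same family, was higher.

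**Figure D4:**
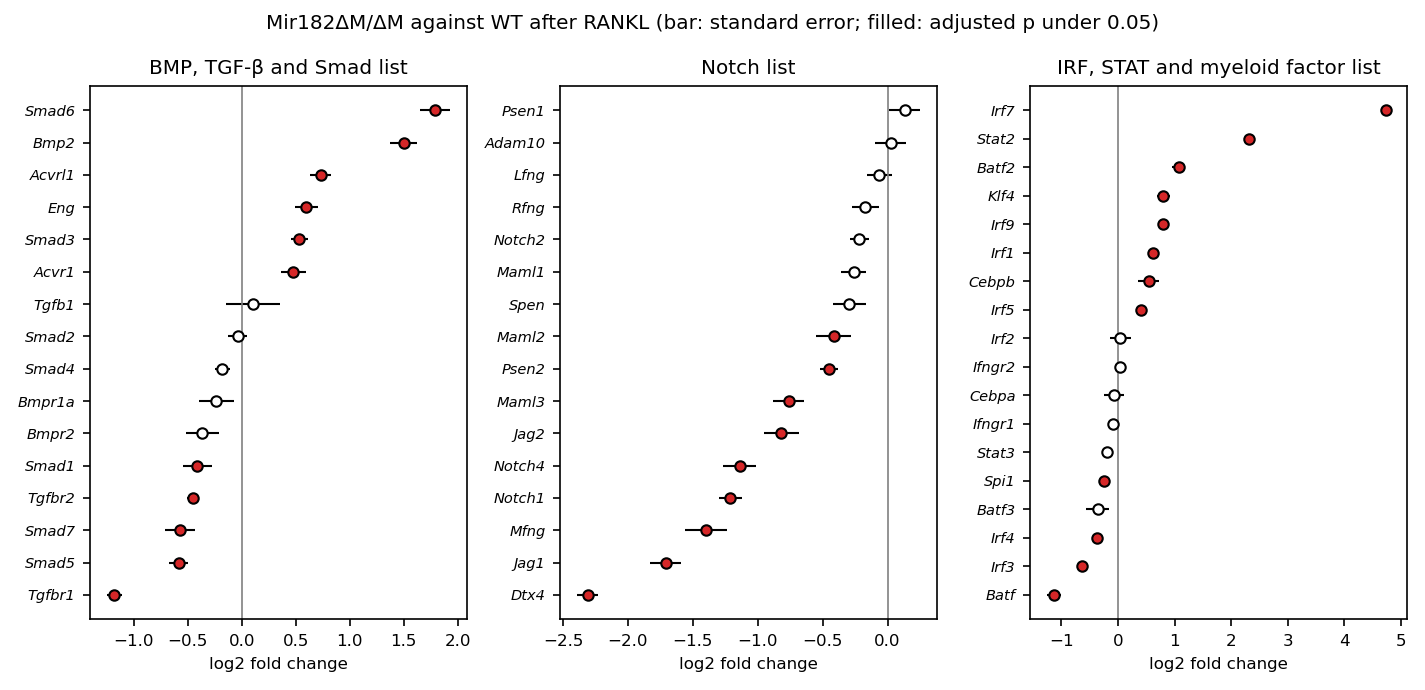
Log2 fold change of Mir182ΔM/ΔM against WT after RANKL for tested genes of 3 lists, with the standard error as a bar and filled points for a limma adjusted p under 0.05. The filled points of the Notch list all lie left of 0, those of the BMP, TGF-β and Smad list lie on both sides with Smad6 at 1.79 and Tgfbr1 at -1.18, and Irf7 stands at 4.74.

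Of 14 corepressors and silencers, 2 were higher and 3 lower in Mir182ΔM/ΔM than in WT after RANKL, with TMM factors 4 higher and 3 lower, and with the replicate block 4 higher and 6 lower. Beside 14.3% higher and 30.9% lower of all genes, these counts are near the background. Dnmt3a, the DNA methyltransferase that silences the Irf8 gene in forming osteoclasts, had 953 ± 44.2 CPM in WT RANKL and 403 ± 15.4 CPM in Mir182ΔM/ΔM RANKL (-1.24, limma adjusted p = 1.29e-05), beside 232 and 260.5 CPM at baseline. Irf8 and Dnmt3a were thus both lower in Mir182ΔM/ΔM RANKL than in WT RANKL, and a link between them was not tested. In Mir182mTg against Control, edgeR called no gene of any of these lists. With the replicate block it called 4 higher of the osteoclast genes, 5 higher and 1 lower of the inducing factors, 5 lower of the Notch list, 6 lower of the IRF, STAT and myeloid list, 1 higher and 2 lower of the other repressors, 1 higher and 1 lower each of the BMP, TGF-β and Smad list and of the corepressors, and 1 lower of the Id partners.

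Markers of other cells were measured beside the members. All 8 macrophage markers were above 1 CPM in every condition, though Lyz2 as given above. The 8 osteoclast markers summed to 39.7 to 74.9 CPM in the unstimulated libraries, 9938 and 10270 CPM in WT RANKL, and 3070 and 3079 CPM in Mir182ΔM/ΔM RANKL, so the RANKL libraries of both genotypes carried them. The 7 neutrophil markers summed to 90.9 to 115 CPM in the basal loss of function libraries, 21.9 to 22.2 CPM in WT RANKL and 7.19 to 7.36 CPM in Mir182ΔM/ΔM RANKL. They summed to 49.5 to 50.7 CPM in Control and 107 to 117 CPM in Mir182mTg. Their part in the differences of the members was not tested. The 5 B cell markers summed to at most 3.67 CPM, in WT RANKL, and to at most 0.472 CPM in Mir182ΔM/ΔM RANKL. Cd79b gave 3.63 and 3.13 CPM of the sums in WT RANKL, while Ms4a1 and Pax5 were at or under 3 reads in every condition. The 5 dendritic cell markers summed to at most 3.53 CPM, also in WT RANKL. Zbtb46 had 1.92 and 2.41 CPM there, 1.25 and 1.495 CPM in Mir182ΔM/ΔM RANKL and at most 0.609 CPM in the unstimulated libraries. Xcr1 was at or under 3 reads in all conditions but Mir182mTg. The 5 T or NK cell markers summed to at most 0.859 CPM, the mast cell list to 1.54 CPM and the erythroid list to 0.179 CPM.

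The 5 endothelial markers, of a cell type rich in Id1 and Id3, summed to 107 and 108 CPM in Mir182ΔM/ΔM RANKL, 24.8 and 26.7 CPM in WT RANKL and at most 9.78 CPM in the other conditions. Kdr alone gave 101.2 and 100.9 CPM of these sums, while Cdh5 had 4.14 and 3.42 CPM, Pecam1 1.91 and 2.05 CPM, and Tek at most 0.131 CPM. In the gain of function libraries, where Id1 and Id3 were highest, the list summed to 7.48 to 8.91 CPM. The 5 stromal markers summed to 1.48 to 31.1 CPM and were higher in replicate 2, and their part was not tested.

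The genes whose pattern over the 8 loss of function libraries was most like that of a member were found by Pearson's r on log2(CPM + 1) centred by replicate number, among 10300 genes. The libraries share 4 conditions of 2 libraries each, so r is high for many genes and is a description. For Irf8 they were Plxnc1 (0.9996), Alkbh5 and Lats2 (both 0.9994), and Plxnc1 went from 285 CPM in WT basal to 64.0 in WT RANKL and 30.6 in Mir182ΔM/ΔM RANKL. For Rbpj they were Cd200r1 (0.9998), Cmklr1 (0.9997) and Cd164 (0.9995). For Bcl6 they were Havcr2 (0.9981), Stat2 (0.9967) and Ifi27l2a (0.9958).

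For Id2 the nearest were Ifitm3 (0.9985), Tgtp2 (0.998) and Igtp (0.9967), interferon-inducible genes, and Ifitm3 went from 390 CPM in WT basal to 296 in WT RANKL and 1104 in Mir182ΔM/ΔM RANKL. For Id3 they were Cxcl11 (0.9992), an interferon-inducible chemokine at 10.6 CPM in Mir182ΔM/ΔM RANKL and at most 0.172 CPM elsewhere, Colgalt1 (0.999) and Esd (0.9987). For Id1 they were Dmwd (0.9906), Serpinb9 (0.9894) and Uba7 (0.988). Between members, r was 0.988 for Id1 and Id2, 0.911 for Irf8 and Rbpj, 0.91 for Id2 and Id3, 0.855 for Bcl6 and Id1, and 0.0186 for Irf8 and Bcl6.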

How the data were processed

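The data were RNA-seq values of 12 mouse BMM libraries, 2 for each of 6 conditions. The authors deposited CPM for the loss of function libraries, and all values (100.0%) were whole multiples of 1 read within 0.05 of a read, so read numbers could be recovered. Raw counts were deposited for the gain of function libraries and were scaled here to 1000000. RPKM were deposited too for replicate 1 of each condition and gave the gene lengths. Per the labels, replicate 1 was poly-A RNA handled with TopHat and Cufflinks and replicate 2 was total RNA handled with HISAT2, HTSeq and edgeR, both on mm10, although poly-A selection is described for both, and versions are not given in the sources used here. Because the number marks this handling, it pairs the samples, and the replicate 2 minus 1 log2 ratios of 11691 genes correlated between conditions at r from 0.690 to 0.758. Rn45s, a ribosomal precursor, had 742 to 1176 CPM in replicate 1 and 9778 to 21270 CPM in replicate 2. Replicates of a condition differed beyond sampling noise, with a mean chi-square per gene of 40.9 to 75.8.

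The test for CPM was limma (version 3.58.1, with a trend) on log2(CPM + 1), in 1 fit of all 8 samples over 11691 genes that reached 1 CPM in 2 samples or more. The counts went through the quasi-likelihood test of edgeR (version 4.0.16) with TMM factors and filterByExpr, over 12081 genes. P-values are 2-sided and adjusted by Benjamini-Hochberg over all genes tested, with a threshold of 0.05. Alternatives were edgeR on the recovered reads, DESeq2 (version 1.42.0), other filters, pseudocounts and scalings, the replicate block, and each sample left out. R version 4.3.3 was used, and the scripts were tested on simulated data.

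The 6 members and all gene and marker lists were chosen with earlier results of these data known. Named beside the members are at most 4 called genes per list by size of change, the partners or targets Prdm1, Nfatc1, Hes1, Mitf and Tcf3, and the 3 genes most like each member. Itgb3 and the uncalled Tcf4 and Tcf12 were named after their values were seen. The 27 names turned into dates stayed in the totals and were not identified. Items withheld from this text are not reported here, by name or in the plots, but are in the counts and sums of their lists. Gene positions and 3′ UTRs are from GENCODE vM21, miR-182 and promoters from RefSeq on GRCm38.p6.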

Additional observations from a re-analysis of the deposited data

Results flagged for a closer look

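For 4 members the response to RANKL differed between genotypes by a test of the difference itself (limma interaction, 2 libraries per condition). Of all genes tested, 7.44% had a positive and 17.1% a negative interaction. For Irf8 the response in Mir182ΔM/ΔM cells minus that in WT cells was -0.714 on the log2 scale (adjusted p = 0.0016), with Irf8 lower after RANKL in all 4 RANKL libraries than in any basal library. For Id3 it was 3.53 (adjusted p = 8.06e-05), for Id1 1.26 (adjusted p = 0.012) and for Id2 0.894 (adjusted p = 0.00768). Id1 passed the filter on low values only through Mir182ΔM/ΔM libraries, both RANKL libraries among them, so it entered the test through the group in which it is high, and its difference is a description. In both Mir182ΔM/ΔM RANKL libraries these Id genes were above both Mir182ΔM/ΔM basal libraries. Each of these differences uses the WT RANKL libraries, which stand apart in Lyz2 and Ifi202b.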

How the results depend on the processing

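The 36 comparisons of a member were recomputed under 596 alternatives in all. Of these values 556 kept their direction, where called, and their side of the threshold, 9 lost the call, 31 gained it, and 0 turned a called direction. The 9 losses were those of Bcl6 with RANKL in WT cells (4, among them no filter on low values with limma adjusted p = 0.0557) and of Rbpj between the genotypes after RANKL (5). With RANKL in WT cells 3 members were lower, against 5 with the replicate block, with TMM factors and the block, with quantile normalization and with edgeR on the recovered reads with or without the block. Between the genotypes at baseline 0 members were called, against 2 higher with the replicate block and with both other blocked fits, of which TMM with the block and edgeR with the block also had 1 lower, Irf8. The interaction was positive for 3 members, against 5 with each of the 3 blocked fits. In Mir182mTg against Control 0 members were called, against 1 higher and 1 lower with the replicate block. With at least 1 CPM in every sample, Id1 and Id3 were not tested, which left 1 member higher with RANKL in Mir182ΔM/ΔM cells, 3 higher between the genotypes after RANKL and 1 with a positive interaction. With each replicate left out in turn, the count lower with RANKL in WT cells was 2 to 3 and that higher between the genotypes after RANKL 4 to 5. The other counts of members called did not change when a replicate was left out. Of 72 mean levels with TMM factors or with Rn45s left out of the total, 7 moved by more than 1 SD, all with TMM factors, the highest of them Rbpj in WT basal at 323 CPM. The replicate block changed no other call of a member. Depth limits Id1, which had 6 reads in each WT RANKL library.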
